A study of Equus caballus with 4 samples.

Results

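VCAM1, SELE, PECAM1 and VWF are 4 genes of the vessel wall and of leukocyte entry, and they were read here in equine sarcoids, locally invasive fibroblastic skin tumours of horses, beside skin of the same animals. They were taken as the array probes whose transcript the RefSeq gene table of the horse assigns to 1 of the 4 symbols. That gave 10 of the 43603 probes, namely 1 for VCAM1, 5 for SELE, 3 for PECAM1 and 1 for VWF, among 1031 genes that could be named. All 10 passed the filter on dim probes, so all 4 genes were tested. Each of 4 arrays carried RNA of the sarcoid of 1 horse (Cy3) and of its tumour-distant skin (Cy5), with no dye swap, so a dye effect that is specific to a gene remains in every ratio. No agent, genotype or age is given in the labels. A log2 ratio below is sarcoid over skin within a horse, after background correction and loess normalization.

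Blood vessels are lined by endothelial cells. PECAM1, a junctional adhesion molecule of these cells that platelets and leukocytes also carry, and VWF, the multimeric clotting protein that endothelium stores and secretes, are standard endothelial markers. SELE (E-selectin) and VCAM1 (vascular cell adhesion molecule 1) appear on endothelium after stimulation with tumour necrosis factor or interleukin 1. E-selectin lets leukocytes roll, and VCAM1 holds them through the integrin of the ITGA4 and ITGB1 chains. VCAM1 is also made by stromal fibroblasts and some macrophages, so it is not specific to vessels. In whole-tissue RNA a difference in the number of cells of a type and a difference in RNA per cell cannot be told apart.

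Between 67.2% and 78.4% of the spots were well above background in the sarcoid channel and between 74.8% and 80.7% in the skin channel, and no spot was saturated. The limma test called 1146 of 19607 targets higher and 1941 lower in sarcoids, where a call means an adjusted p (Benjamini-Hochberg) under 0.05. These counts were 93 higher and 147 lower with the background model fitted to all spots, and 406 higher and 1102 lower without horse 1. The tissue labels were set against marker lists. All 7 measured fibroblast markers were higher in sarcoids, from 1.58 to 4.24 on the log2 scale in the brightest probe of each. Among them were the matrix genes COL5A2 (2.05), BGN (3.06), LUM (4.24) and DCN (1.84). In the markers with several probes, the probe means ran from 1.27 to 3.04 for COL14A1 and from 3.26 to 4.24 for LUM. They ran from 1.29 to 1.58 for VIM and from 2.53 to 2.99 for SPARC. All 3 measured keratinocyte and gland markers, LATH, S100A7 and KRT15, were lower, from -6.33 to -5.12. The mean log2 intensity of the fibroblast markers ranged from 15.10 to 15.81 in sarcoids and from 12.32 to 13.37 in skin. With the background model fitted to all spots, as described below for VCAM1, the calls of COL14A1, COL5A2, SPARC, VIM and S100A7 among these markers were lost.

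VCAM1 was higher in the sarcoid of every horse and was the single member that passed the test. Of all targets, 40.6% had the same sign on every array. The median spot signal of VCAM1 was 2906.5, 5489, 3552.5 and 1794 in the sarcoids of horses 1 to 4. In their skin it was 274.5, 1016, 1406 and 1009. The lowest of these raw sarcoid signals lay above the highest skin signal. How many of all targets show such a gap was not counted. After normalization the log2 intensity was 11.95 ± 0.70 in sarcoids and 9.34 ± 0.75 in skin (SD, n = 4 each). The log2 ratios of horses 1 to 4 were 3.24, 3.33, 1.84 and 2.04. Horses 1 and 2 lay above horses 3 and 4. Their mean was 2.61 ± 0.78 (SD, n = 4), a 6.11-fold difference with a 95% interval of 1.83 to 3.39 on the log2 scale (limma adjusted p = 0.00631).

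VCAM1 ranked 6 among the 845 named targets by size of the rise. Of all targets, 15.7% were called in either direction, 5.84% higher and 9.90% lower, and of the 4 members 1 was called, higher. Dropping any 1 horse left the log2 ratio of VCAM1 between 2.37 and 2.87, with a limma adjusted p of at most 0.0281. The call was lost where the background model was fitted to all spots with outlier spots included, at a log2 ratio of 2.37 and a limma adjusted p of 0.0706. Horse 3 moved most under that setting, to 1.27. Only 1 probe measures VCAM1, so no second probe checks its ratio.

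SELE had very little signal in either tissue. Its brightest probe, A_69_P000719, read 106, 99.5, 98 and 78.5 in the sarcoids of horses 1 to 4. The same probe read 121, 102, 108.5 and 107.5 in their skin. These signals include a local background of 23 to 25.5 in the sarcoid channel and 41.5 to 49 in the skin channel. Less that background they were 81, 76.5, 74 and 53 in sarcoids and 79.5, 53, 64.5 and 59.5 in skin, so the order of the tissues differed between the raw and the net signals in horses 1 to 3. Normalized log2 intensities were 6.50 ± 0.11 in sarcoids and 6.74 ± 0.26 in skin (SD, n = 4 each). The log2 ratios were -0.61, 0.10, -0.21 and -0.22, with a mean of -0.23 ± 0.29 (SD, n = 4; limma adjusted p = 0.351). The 95% interval of -0.61 to 0.14 includes 0.

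The 5 SELE probes had mean log2 ratios between -0.39 and -0.18, and none passed in the fit over 33864 probes, of which 18.2% were called, 6.97% higher and 11.2% lower. Their limma adjusted p lay between 0.0887 and 0.428, and 2 of them, A_69_P000716 and A_69_P000717, were below 0 in all 4 horses with the lowest adjusted p. In these 2 the sarcoid signal cleared background on 0 of 4 arrays and the skin signal on 4 of 4, so the sarcoid level is only a bound. Both passed the filter on dim probes through the skin channel alone, and neither was called. A_69_P000716 had mean log2 intensities of 6.06 in sarcoids and 6.42 in skin with a bound of at least 1.19-fold lower in sarcoids. A_69_P000717 had 6.15 in sarcoids and 6.54 in skin with a bound of at least 1.29-fold lower. Less local background, A_69_P000717 read 61, 51, 56 and 48 in the sarcoids of horses 1 to 4 and 58, 39, 41.5 and 47.5 in their skin. Its net signal was thus higher in sarcoid in every horse. The net signal of A_69_P000716 was also higher in sarcoid at all its spots but 1, which read 45 against 50.5 in horse 4. The direction of both bounds therefore rests on the normalization. Each bound sets the mean skin level against the higher of the probe's own sarcoid level and the lowest level well above background on that array, and is open to dye bias. Both probes passed with a smaller normexp offset of 10, at a log2 ratio of -0.79 each (limma adjusted p = 0.0187 and 0.0241). With Agilent's processed signals they were at -2.09 and -2.40 (limma adjusted p = 0.00114 and 0.000684), so both the call and the size for these dim probes depend on how background is handled. A_69_P000716 also passed without the filter on dim probes (limma adjusted p = 0.0497).

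A_69_P000716 is printed at 5 places of the array, which gives the technical error of a dim spot. Within an array the SD between its 5 log2 ratios was 0.11, 0.04, 0.15 and 0.12 in horses 1 to 4. The array means ran from -0.49 to -0.28. In horse 1 the 5 ratios ran from -0.64 to -0.36, and with Agilent's processed signals from -2.67 to -1.52, so this spread depends on how background is handled.

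**Figure D1:**
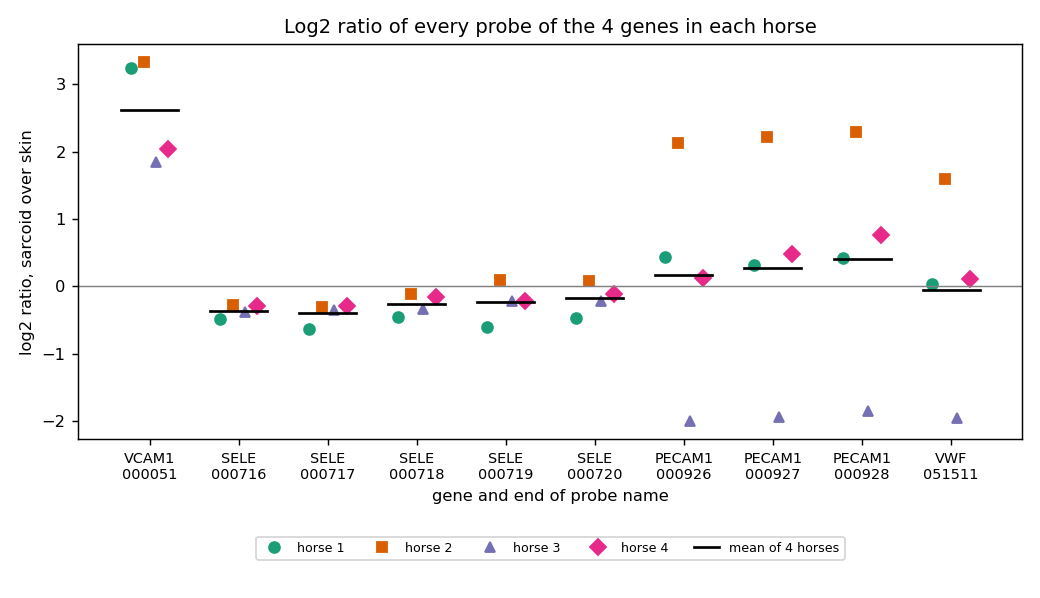
Log2 ratio of sarcoid over skin (vertical axis) for each of the 10 probes, with 1 symbol per horse and a bar at the mean of 4 horses. All 4 VCAM1 values lie between 1.84 and 3.33, the SELE probes lie close to 0, and the PECAM1 and VWF probes spread from about -2 in horse 3 to above 1.5 in horse 2.

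The endothelial markers PECAM1 and VWF did not differ in a common direction between sarcoid and skin, and the horses lay far apart. The brightest PECAM1 probe, A_69_P000928, read 982, 6777.5, 517.5 and 1648 in the sarcoids of horses 1 to 4. It read 673, 2652.5, 2457 and 2195 in their skin. The groups overlapped. In horse 4 the raw sarcoid signal was below that of skin and the normalized ratio above 0, and horse 3 had the lowest sarcoid signal beside a skin signal close to that of horse 2. The log2 ratios were 0.42, 2.29, -1.84 and 0.77, a mean of 0.41 ± 1.71 (SD, n = 4; limma adjusted p = 0.721). The 95% interval of -1.21 to 2.03 leaves room for a clear difference in either direction.

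All 3 PECAM1 probes showed the same order at the extremes. In horse 2 their log2 ratios were 2.12, 2.22 and 2.29, and in horse 3 they were -2.0, -1.94 and -1.84. In horses 1 and 4 the 3 probes lay between 0.12 and 0.77. The difference between probes within a horse was therefore much smaller than the range of 4.13 between horses. The spot of A_69_P000928 in horse 2 carried a flag for an unusual local background. Leaving out spots with that flag removes horse 2 from this probe and puts its mean at -0.22 over 3 horses (limma adjusted p = 0.837).

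VWF gave the same picture from another transcript. Its probe read 1832, 8629.5, 1044 and 4743 in the sarcoids of horses 1 to 4. In skin it read 1719, 5674.5, 5728 and 9687.5. Its log2 ratios were 0.03, 1.59, -1.95 and 0.10, so horses 1 and 4 were near 0 and horses 2 and 3 lay on opposite sides. In horse 4 the raw sarcoid signal of VWF was below that of skin, against a normalized ratio just above 0. The mean was -0.06 ± 1.45 (SD, n = 4; limma adjusted p = 0.959), with a 95% interval of -1.44 to 1.33. Without horse 3 the mean was 0.58 (limma adjusted p = 0.375), and without horse 2 it was -0.60 (0.491). For PECAM1 the corresponding means were 1.16 without horse 3 (0.153) and -0.22 without horse 2 (0.851).

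The spread between horses was unusual for this array. The SD of PECAM1 across the 4 horses exceeded that of 98.9% of the 19607 targets and that of VWF 98.0%, while VCAM1 stood at 89.6% and SELE at 40.8%. The median SD over all targets was 0.34. The spread lay mostly in the sarcoids. The SD of the normalized log2 intensity of PECAM1 was 1.81 in sarcoids and 0.65 in skin, and that of VWF was 1.56 in sarcoids and 0.67 in skin. For VCAM1 the values were 0.70 in sarcoids and 0.75 in skin. These SDs rest on 4 values each and their difference was not tested.

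**Figure D2:**
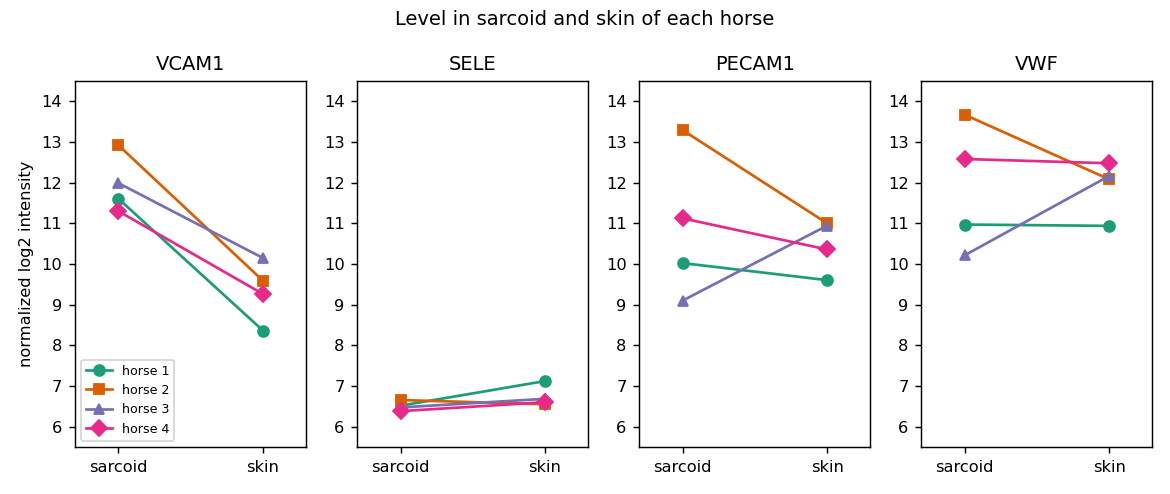
Normalized log2 intensity (vertical axis, arrays set to a common intensity distribution) of the probe that represents each gene, in the sarcoid and the skin of each horse, joined by a line. VCAM1 is higher in sarcoid than in skin in all 4 horses, whereas the lines of PECAM1 and VWF spread out in sarcoid and converge in skin.

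Set side by side within a horse, the log2 ratio of VCAM1 exceeded that of the endothelial markers in 4 of 4 horses. VCAM1 minus PECAM1 was 2.82, 1.04, 3.68 and 1.27 in horses 1 to 4, a mean of 2.20 ± 1.27 (SD, n = 4). VCAM1 minus VWF was 3.21, 1.74, 3.79 and 1.93, a mean of 2.67 ± 0.99. The difference was largest in horse 3, whose sarcoid had the lowest PECAM1 and VWF relative to skin. VCAM1 minus SELE averaged 2.85 ± 0.84 and was above 0 in all 4 horses.

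PECAM1 and VWF stayed close to each other, with a difference of 0.39, 0.70, 0.11 and 0.66 in horses 1 to 4 and a mean of 0.46 ± 0.28 (SD, n = 4). The exact two-sided sign-flip permutation test gave p = 0.12 for each of these 4 differences, which is the smallest value that 4 horses allow. Adjusted over the 6 pairs it was 0.188 for each, so with 4 horses this test cannot call any of them. SELE minus PECAM1 averaged -0.64 ± 1.62 and SELE minus VWF -0.18 ± 1.37, with exact permutation p of 0.5 and 0.75.

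The signs in horses 2 and 3 held under 6 ways of correcting and normalizing the arrays. Over these settings PECAM1 lay between 1.78 and 2.37 in horse 2 and between -2.05 and -0.63 in horse 3. VWF lay between 1.03 and 1.61 in horse 2 and between -2.23 and -1.25 in horse 3. VWF in horses 1 and 4 lay near 0 and changed sign between settings. VCAM1 was above 0 in all 4 horses under all 6.

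Of 34 listed endothelial markers 4 were measured by name, namely PECAM1, VWF and the other two, S1PR1 and EDNRB. Of these limma called 0, beside 15.7% of all targets, and 0 had an unadjusted p under 0.05. With 4 genes, 0 calls cannot be told from that share. Their median log2 ratio was 0.05, beside 0.0035 over all targets. S1PR1, a receptor for sphingosine 1-phosphate that endothelial cells use to keep vessels tight, had log2 ratios of 0.03, 1.40, -1.23 and 0.45 in horses 1 to 4. As for VWF, horse 2 was highest and horse 3 lowest. EDNRB, an endothelin receptor that melanocytes also carry, was at -0.46, -0.48, -1.57 and 0.00. The median of the list, which PECAM1 and VWF help to set, was 0.03, 1.49, -1.71 and 0.28 in horses 1 to 4. The mean log2 intensity of the 4 genes ranged from 8.32 to 11.27 in sarcoids and from 8.88 to 10.07 in skin.

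Of 20 listed adhesion molecules of leukocyte entry 5 were measured, and VCAM1 was the one that limma called, beside 15.7% of all targets. SELP (P-selectin), which endothelium stores together with VWF and platelets also carry, had log2 ratios of -0.85, 0.80, -1.03 and 1.02. Its mean of -0.02 ± 1.08 (SD, n = 4) hides 2 horses on each side of 0. ICAM3, an adhesion molecule found mainly on leukocytes, was at 0.41, 0.86, -1.58 and -0.22, a mean of -0.13 ± 1.06. The list median of -0.02 was near that of all targets. Horse 3 was the lowest of the 4 horses for VCAM1, PECAM1, SELP and ICAM3, but not for SELE.

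The leukocyte partners of these molecules were not called. Of 17 listed ligands 5 were measured and 0 passed in limma, beside 15.7% of all targets, a share that 5 genes cannot be told from. An unadjusted p under 0.05 was found for 1, and the median log2 ratio was 0.20. ITGB2, the shared chain of the leukocyte integrins that bind intercellular adhesion molecules, averaged 0.89 ± 0.75 (SD, n = 4) and was above 0 in horses 1, 2 and 4. SELPLG, the main ligand of P-selectin, averaged 0.12 ± 0.16, and ITGAX, an integrin chain of dendritic cells and macrophages, 0.20 ± 0.49. CD44, a hyaluronan receptor that also binds E-selectin in some glycosylated forms, averaged -0.69 ± 1.04. ITGB3, a chain shared by the platelet fibrinogen receptor and an integrin of activated endothelium, averaged 0.30 ± 0.35. ITGA4 and ITGB1, the chains that bind VCAM1, were on the list, but the gene table assigned no probe to them.

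Of 19 listed partners of VWF in haemostasis 4 were measured and 0 passed in limma, beside 15.7% of all targets. An unadjusted p under 0.05 was found for 1. ITGA2B, the platelet chain that pairs with ITGB3, averaged 0.37 ± 0.42 (SD, n = 4), and ANXA2, which binds plasminogen activator on cell surfaces, averaged -0.50 ± 0.33. PLAUR, the urokinase receptor, ran from -1.57 in horse 4 to 2.58 in horse 1, an order of horses unlike that of VWF.

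**Figure D3:**
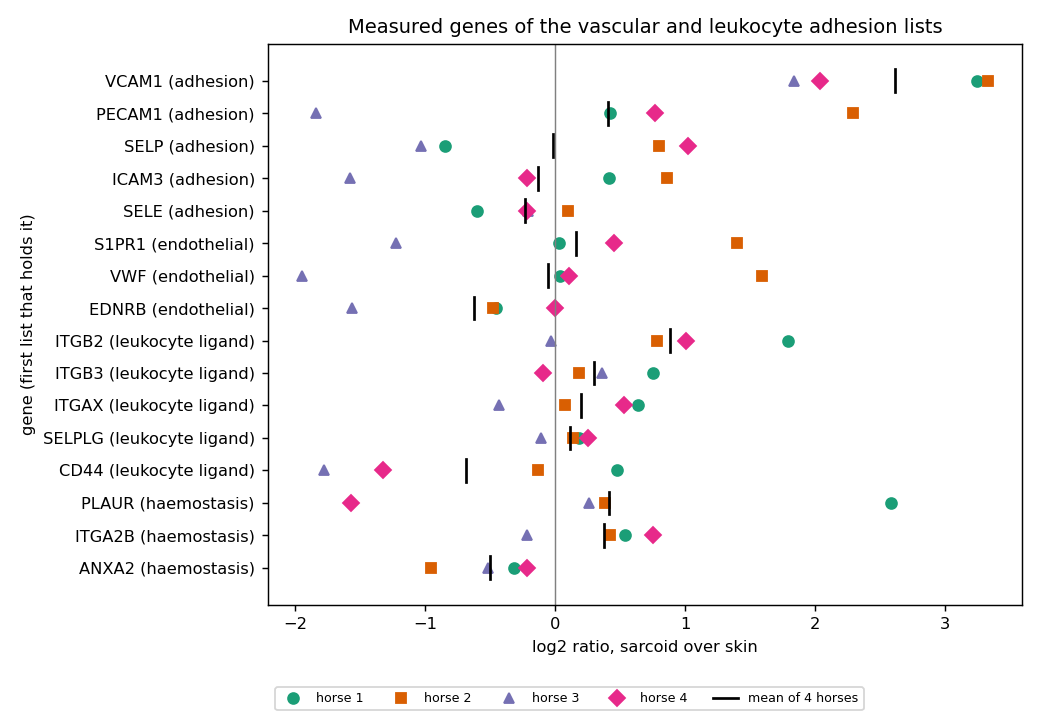
Log2 ratio of sarcoid over skin (horizontal axis) for the 16 measured genes of the adhesion, endothelial, leukocyte ligand and haemostasis lists, with 1 symbol per horse and a bar at the mean. VCAM1 alone lies wholly above 1, while horse 3 gives the lowest value for every gene except SELE, ITGB3, ANXA2 and PLAUR. Each gene is shown by its brightest probe, and some other ITGAX probes were lowest in horse 2 or 4. How many of all targets have horse 3 lowest was not counted.

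Cytokines and receptors that act on VCAM1 and SELE were measured for 11 of 28 listed genes, of which limma called 2, both lower in sarcoids. Over all targets the share called was 15.7%, with 9.90% lower. IL1R2, the decoy receptor of interleukin 1, was at -5.39 ± 0.54 (SD, n = 4; limma adjusted p = 0.000278), and IL1RN, the interleukin 1 receptor antagonist, at -2.20 ± 0.44 (limma adjusted p = 0.00243). IL1RN had 8 tested probes with log2 ratios from -2.20 to -0.14. The value of -2.20 came from the brightest, A_69_P000471, and the others lay between -0.49 and -0.14. With the mean of all its tested probes IL1RN was at -0.55 (limma adjusted p = 0.0304). Its call was lost with the background model fitted to all spots, where it was at -1.28 (limma adjusted p = 0.188). IL4R, a chain of the receptors for interleukins 4 and 13, averaged 0.71 ± 0.52, and IL1A, interleukin 1 alpha, was not called and did not clear background in any sarcoid. TNF, the classical inducer, was at -0.28 ± 0.71.

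Of 7 measured leukocyte markers 6 had a mean log2 ratio above 0, with a list median of 0.60. Limma called 1 of them, higher in sarcoids, beside 5.84% of all targets called higher. That gene was CSF1R, the receptor of macrophage growth factor, with log2 ratios of 1.99, 1.14, 0.92 and 0.90 in horses 1 to 4 and a mean of 1.24 ± 0.51 (SD, n = 4; limma adjusted p = 0.0199). Its call was lost without horse 2 (limma adjusted p = 0.0615), on median centring (0.0762) and with the background model fitted to all spots, where its log2 ratio was 0.91 (0.265). KLRD1, a receptor chain of natural killer cells, averaged 0.67 ± 0.36, CD68, a macrophage lysosomal protein, 0.35 ± 0.21, and CD14, a monocyte receptor for bacterial lipopolysaccharide, 1.14 ± 1.12 (SD, n = 4 each), and limma called none of the 3. The mean log2 intensity of the 7 markers ranged from 9.25 to 10.62 in sarcoids and from 9.08 to 9.83 in skin. Horse 3 had the lowest list median, at -0.13, against 1.12, 1.14 and 0.54 in horses 1, 2 and 4. The part of leukocytes and fibroblasts in the VCAM1 result was not tested.

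Among the other targets with a symbol in the gene table, the nearest to VCAM1 in their 4 log2 ratios were LOC102149211, SELENOP and TNFAIP6, at root mean square distances of 0.46, 0.49 and 0.64 over 4 arrays. SELENOP, a selenium transport protein, was at 3.50, 2.39, 1.87 and 1.96 in horses 1 to 4, and TNFAIP6, a hyaluronan-binding protein induced by tumour necrosis factor, at 2.80, 2.22, 2.27 and 1.93. The nearest to PECAM1 were CAV2, VWF and TNFSF10, at 0.49, 0.52 and 0.53. CAV2, a caveolin abundant in endothelium, was at 0.48, 1.49, -1.35 and 1.04. The nearest to VWF were TNFSF10, TMEM140 and S1PR1, at 0.36, 0.37 and 0.41. TNFSF10, the death ligand TRAIL, was at 0.44, 1.25, -1.83 and 0.58, and TMEM140, a membrane protein, at 0.58, 1.18, -2.12 and 0.36. The nearest to SELE were RPL5, ELOA and CS, at 0.09, 0.10 and 0.13, with log2 ratios between -0.69 and 0.21. Of the reference genes, ACTB averaged -0.34 ± 0.45 and GAPDH 0.27 ± 0.48 (SD, n = 4 each), and limma called 0 of the 2. The GAPDH value came from the brightest of 13 tested probes, and the means of these probes ran from -0.08 to 0.32. The probes disagreed in horse 4, where the brightest was at -0.33 and A_69_P004889 at -1.89.

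**Figure D4:**
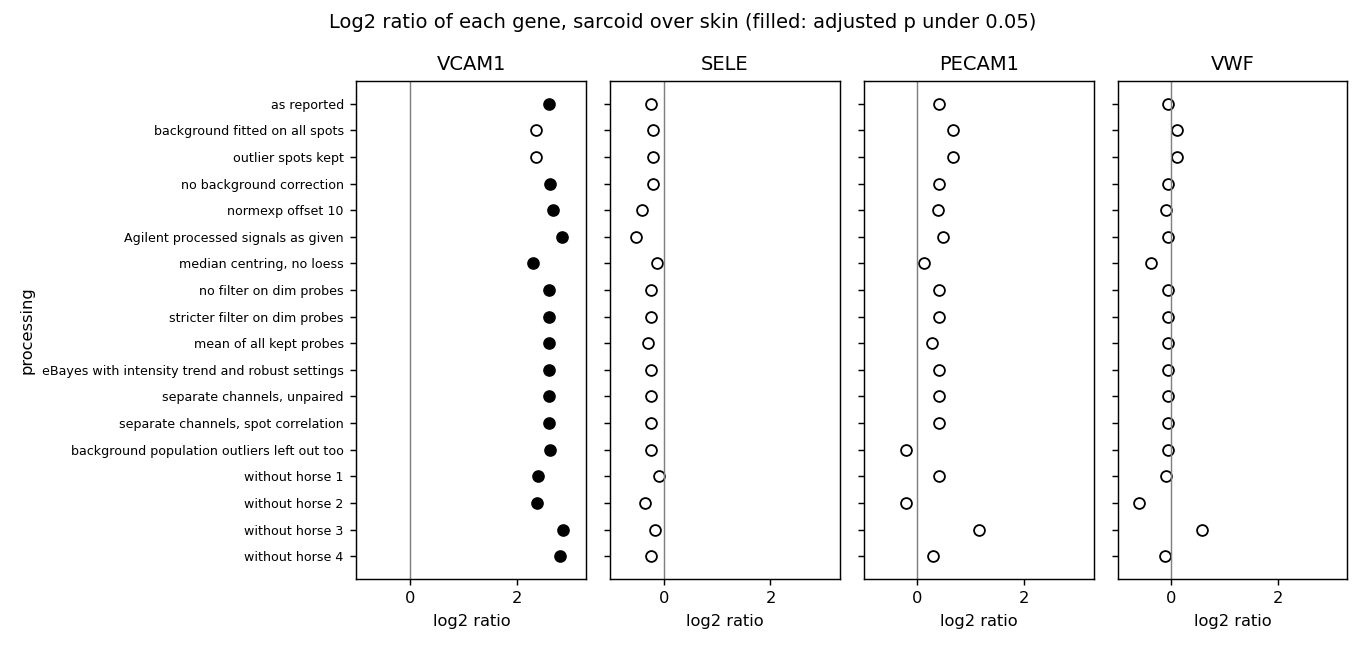
Log2 ratio of sarcoid over skin (horizontal axes) of each gene as reported and under 17 other ways of processing, filled where the limma adjusted p was under 0.05. VCAM1 stays between 2.31 and 2.87 and is open only in the rows that fit the background to all spots, SELE stays below 0, and PECAM1 and VWF cross 0.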

How the data were processed

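The deposited scanner files hold, per the file headers, linear intensities (the median of each spot and of its local background, per dye) and processed intensities, already background-subtracted and dye-normalized. The submitters' processing notes name Feature Extraction 11.5.1.1. The deposited log10 ratio is Cy5 over Cy3, and the authors' value table holds the same log10 values, with a largest difference of 0 and column medians of 0, -0.00262, -0.0118 and 0 in horses 1 to 4. The other columns are flags of 0 or 1, per the file headers. Per the labels, 100 ng of RNA was amplified, and each horse gave 1 sarcoid and 1 skin sample. Descriptions of 3 samples mention embryonic stem cells, and the tissue labels were followed.

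Spots with an outlier flag for a feature (non-uniform or population) or for a non-uniform background were left out. Background population flags were not used, which was settled after values under both readings were seen. Intensities were corrected with normexp (offset 50) and normalized by loess in limma 3.58.1 under R 4.3.3. Spots of a probe were averaged. Probes well above background on 3 of 4 arrays of a channel were kept, and a gene was represented by its brightest probe. Each target's log2 ratios were set against 0 in lmFit and eBayes, with p adjusted over all targets by Benjamini-Hochberg, and checked on simulated data. Probes numbered 43603, of which 33864 were tested. Levels were compared after Aquantile scaling. The members, lists and tests were chosen with earlier results of these data known. Named beside the members are all measured genes of the vascular, ligand and haemostasis lists, up to 4 of other lists by adjusted p, TNF, EPAS1, GZMB, COL14A1, SPARC and VIM after their values were seen, the 3 nearest genes to each member, ACTB and GAPDH. A planned promoter motif search was not run. Alternatives covered background, normalization, filters, probe choice, model and each horse left out.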

Additional observations from a re-analysis of the deposited data

Results flagged for a closer look

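Over 95 sets of 4 values, 5 held a horse whose gap to the nearest of the others was large for the range of the set, and chance gives about 1 such set in 20. A_69_P000717 of SELE had a log2 level of 6.83 in the skin of horse 1, against 6.43 to 6.46 in the other skins. A_69_P000718 of SELE had 6.55 in the sarcoid of horse 2, against 6.29 to 6.31 in the other sarcoids. The log2 ratio of BGN was 3.98 in horse 1 and 2.67 to 2.85 in the others. That of VIM was 2.29 in horse 1 and 1.32 to 1.39 in the others, and that of SPARC was 1.20 in horse 4 and 3.36 to 3.74 in the others. The wide spread of PECAM1 and VWF was not among the 5, since both horses 2 and 3 lay far from the middle.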

How the results depend on the processing

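VCAM1 kept its direction under 17 alternatives (2.31 to 2.87) and its call under 15. With normexp fitted on all spots it was at 2.37 whether outlier spots were left out afterwards or kept (limma adjusted p = 0.0706 and 0.0707), and VWF was at 0.11 in both. These settings called 93 and 94 targets higher and 147 lower in each. Agilent's processed signals called 1887 higher, which put 48.2% of calls on the higher side against 37.1%, and median centring 614 (18.7%), with the median of all targets at 0.09 and -0.10. SELE as a gene stayed below 0 and uncalled (-0.51 to -0.08), with both ends from A_69_P000720 where that probe was brightest, and A_69_P000719 ran from -0.40 to -0.11. PECAM1 was at -0.22 with background population outliers left out too, which removes horse 2 from its brightest probe. Its probe A_69_P000926 was at -0.10 on median centring. The causes of the other shifts were not tested. With each horse left out in turn, 406 to 844 targets were higher and 1102 to 1440 lower (fewest without horse 1), and the log2 ratio was 2.37 to 2.87 for VCAM1, -0.22 to 1.16 for PECAM1 and -0.60 to 0.58 for VWF. The other PECAM1 probes ranged from -0.48 to 0.89 and from -0.38 to 1.01. Separate channels without the replicate block (unpaired) gave a limma adjusted p of 0.00642 for VCAM1 and 933 higher and 1792 lower targets, and pairing by array 0.00151, 1570 and 2522. Signal near background limits SELE, and 4 arrays limit every value.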

Other observations

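Angiogenic factors were measured for 5 of 21 listed genes, and limma called 0 of them, beside 15.7% of all targets. None had an unadjusted p under 0.05, and the median log2 ratio was -0.26. VEGFA, the main growth factor of endothelium, was at -0.26 ± 0.20 (SD, n = 4) and its signal cleared background in 2 of 4 sarcoids and 4 of 4 skins. EPAS1, a hypoxia-inducible factor rich in endothelium, was at 0.13, 1.35, -1.26 and -1.38 in horses 1 to 4, with horses 2 and 3 on opposite sides as for VWF but horse 4 as low as horse 3. EFNB2, a ligand that marks arterial endothelium, was at -0.22 ± 0.18, and FGF2, a growth factor for endothelium and fibroblasts, at 0.16 ± 0.25. TIMP3, a matrix-bound inhibitor that also blocks a receptor of VEGFA, was at -0.39 ± 0.55. The 1 measured marker of vascular smooth muscle, TAGLN, was at 0.92, 0.18, -0.88 and -0.64, a mean of -0.10 ± 0.82 that limma did not call, and its order of horses was not that of PECAM1.

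The alpha globin gene HBA2, an erythrocyte marker, was lower in sarcoids in all 4 horses, where 40.6% of all targets had the same sign on every array. HBA2 was at -1.33 ± 0.33 (SD, n = 4; limma adjusted p = 0.00661). Its call was lost with the background model fitted to all spots, at -0.73 (limma adjusted p = 0.224). Its log2 ratios were -1.31, -1.17, -1.80 and -1.05 in horses 1 to 4, with horse 3 lowest as for PECAM1 and VWF but horse 4 highest. The beta globin gene HBB did not share this order, at -1.21, -0.42, -0.46 and -0.95, with horse 1 lowest. HBB cleared background in 1 of 4 sarcoids and 4 of 4 skins, so it passed the filter through skin alone. Its call (limma adjusted p = 0.0446) was lost in 11 of 17 alternatives. Among leukocyte markers, CD14 was at 2.17, 1.70, -0.40 and 1.11 and was not called, and GZMB, a protease of cytotoxic lymphocytes, was at -1.35, 2.78, -2.16 and -0.49. In this brightest probe of GZMB, as in PECAM1 and VWF, horse 2 was highest and horse 3 lowest. The other GZMB probe, A_69_P000746, was at 0.20, 0.25, -1.04 and -0.68, with horse 2 close to horse 1. The cause of this order of horses was not tested.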
